A study of Mus musculus with 18 samples.

Results

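The epithelial keratin genes Krt7, Krt8, Krt18, Krt19, Krt20, Krt17, Krt23 and Krt80 were followed in pancreatic acinar cells that were placed in suspension culture. The 8 genes were taken by name from a count table of 46603 genes, in which 51 genes carry a keratin symbol, and all 8 were measured in each of the 18 RNA sequencing libraries. The cells came from xCT KO mice (xCT-/-, without the cystine and glutamate exchanger encoded by Slc7a11) and from WT mice (xCT+/+), and were sampled at day 0, that is freshly isolated, and after 1 and 4 days of culture, with 3 libraries for each of the 6 groups. The labels name no added agent, give the same medium for both genotypes, and state that the suspension culture lets the cells dedifferentiate. The xCT-/- genotype is that of the animal and not of acinar cells alone, the cells were isolated as exocrine cells, and the age of the animals used for these cultures is not given in the sources used here. The study's methods speak of biological repeats for cultures of mouse cells, but which animal gave which library is not given in the sources used here, so p-values measure the spread between libraries, which may in part be technical. The question is how the keratin genes move while the cells dedifferentiate, and whether cells without xCT differ in this.

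Keratins form the intermediate filaments of epithelial cells. A filament is built from pairs, each of a type I keratin (here Krt17, Krt18, Krt19, Krt20 and Krt23) and a type II keratin (here Krt7, Krt8 and Krt80), and a keratin without a partner is degraded. In the pancreas, Krt8 and Krt18 are the main pair of acinar cells, whereas Krt7 and Krt19 are known as keratins of duct cells, and epithelial keratins are known to be induced when the exocrine pancreas is injured.

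The libraries held 12127474 to 20135435 counts assigned to genes. Slc7a11, the gene deleted in the KO, had 1 to 6 counts in the KO libraries of day 0, against 48 to 50 in the WT libraries of day 0, and its level was lower in KO than in WT at each of the 3 days, by a log2 fold change of -3.98 at day 0, -5.93 at day 1 and -6.35 at day 4 (adjusted p = 3.73e-09, 3.09e-22 and 1.95e-24, edgeR), so the genotype labels held. The Y-linked gene Ddx3y had 6 to 92 counts in the 3 libraries of WT replicate 1 and 0 counts in the other WT libraries and in all 9 KO libraries, so WT replicate 1 differed from all other libraries in sex. As to the labelled cell type, the summed counts of 10 acinar markers made up 51.5 to 53.2% of the counts of a KO library and 51.3 to 52.7% of a WT library at day 0, and 6.25 to 7.18% in KO and 7.72 to 10.1% in WT at day 4. Because so much of a day 0 library is taken up by a few enzyme transcripts, levels are given as CPM (counts scaled to a common library size) after TMM scaling, which sets the libraries so that the bulk of the genes does not move. Changes between days are therefore relative to the other genes. With libraries scaled by their totals instead, the median over the 13203 tested genes was a log2 fold change of 1.29 in KO and 0.998 in WT for day 1 against day 0, and 1.86 in KO and 2.03 in WT for day 4 against day 1. In bulk RNA, fewer cells of a type and less RNA per cell cannot be told apart.

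The 8 genes lie in the 2 keratin gene clusters of the mouse genome (build GRCm38, positions from the count table). The type II genes Krt80 (101349571 to 101370125, minus strand), Krt7 (101411043 to 101430313, plus strand) and Krt8 (101996711 to 102004342, minus strand) are on chromosome 15, together with the only type I gene outside the type I cluster, Krt18 (102028216 to 102032026, plus strand). The type I genes Krt20 (99428403 to 99438150), Krt23 (99477974 to 99493137), Krt19 (100140810 to 100148665) and Krt17 (100256217 to 100261029) are all on the minus strand of chromosome 11. Krt8 and Krt18 are neighbours that are read away from each other, with 23.9 kb between their starts. Reads of Krt8 can be shared with the processed copy Krt8-ps (98.6% identity over 941 bases), those of Krt18 with Gm5200 (90.5% over 1267 bases) and those of Krt17 with Krt14 (91.0% over 756 bases). Krt14 had 0 counts in all 18 libraries, and no count of the other copies was used here. Krt80 lies within the antisense gene Gm35853 and Krt7 overlaps the antisense gene Gm671. Whether reads were counted by strand is not given in the sources used here, so reads from such overlaps cannot be told apart.

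Promoter sequences are shown for Krt8 and Krt18, the pair whose levels moved together most closely, and for Krt7. Krt7 rose after day 1 while that pair fell relative to the other genes. Krt17, Krt20 and Krt23 did not fall with the pair either. The sequences are RefSeq promoters of GRCm38.p6, from 250 bases before the annotated start to 50 after it. They are given 5′ to 3′ on the strand of the gene. Of the 8 genes 5 had an entry (Krt7, Krt8, Krt18, Krt20 and Krt23). Capitals mark matches, on either strand, to a TATA box (TATAAA) or a GC box (GGGCGG), and matches that overlap run together.
Krt8, chr15:102004293-102004592, minus strand: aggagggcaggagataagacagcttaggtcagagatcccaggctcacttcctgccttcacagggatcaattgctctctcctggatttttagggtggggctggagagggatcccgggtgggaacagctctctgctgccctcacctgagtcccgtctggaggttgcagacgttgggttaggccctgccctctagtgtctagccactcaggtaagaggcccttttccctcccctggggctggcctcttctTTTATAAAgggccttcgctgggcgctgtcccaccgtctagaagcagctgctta
Krt18, chr15:102027966-102028265, plus strand: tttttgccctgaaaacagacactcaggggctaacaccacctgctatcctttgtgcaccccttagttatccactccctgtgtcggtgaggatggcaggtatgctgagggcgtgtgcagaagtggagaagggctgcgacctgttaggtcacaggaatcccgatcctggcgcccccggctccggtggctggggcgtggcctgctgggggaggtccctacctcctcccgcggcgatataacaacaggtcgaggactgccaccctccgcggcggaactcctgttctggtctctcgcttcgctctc
Krt7, chr15:101412153-101412452, plus strand: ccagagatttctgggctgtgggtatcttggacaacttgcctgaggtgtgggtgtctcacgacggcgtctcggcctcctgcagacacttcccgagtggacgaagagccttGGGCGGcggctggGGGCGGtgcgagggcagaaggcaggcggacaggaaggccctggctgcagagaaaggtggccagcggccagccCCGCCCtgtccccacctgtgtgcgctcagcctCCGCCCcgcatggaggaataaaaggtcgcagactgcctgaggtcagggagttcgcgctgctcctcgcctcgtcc
The Krt8 window held 2 overlapping TATA box matches right at the annotated start, and the Krt18 window held neither motif. The Krt7 window, which begins downstream of the gene's start in the count table, held 4 GC boxes. Among 32851 promoters of this length, 13.6% held the TATA box letters and 35.7% the GC box letters. The AP-1 element (TGANTCA, N for any base), present in 7.8% of the promoters, was in none of the 5 windows. Such matches describe the letters of these windows only.

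The keratins rose within 1 day of culture in both genotypes. For day 1 against day 0, 30.5% of all tested genes were called higher and 27.6% lower in KO, and 28.6% higher and 26.9% lower in WT (edgeR, Benjamini-Hochberg adjusted p under 0.05). The 6 members with at least 3 counts in every day 0 library (Krt7, Krt8, Krt18, Krt19, Krt23 and Krt80) were all called higher in each genotype, with a median log2 fold change of 3.07 in KO and 2.79 in WT, against 0.05 in KO and 0.01 in WT for all tested genes. Krt17 and Krt20 passed the filter on low counts only through their later counts, and are described by their counts.

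**Figure D1:**
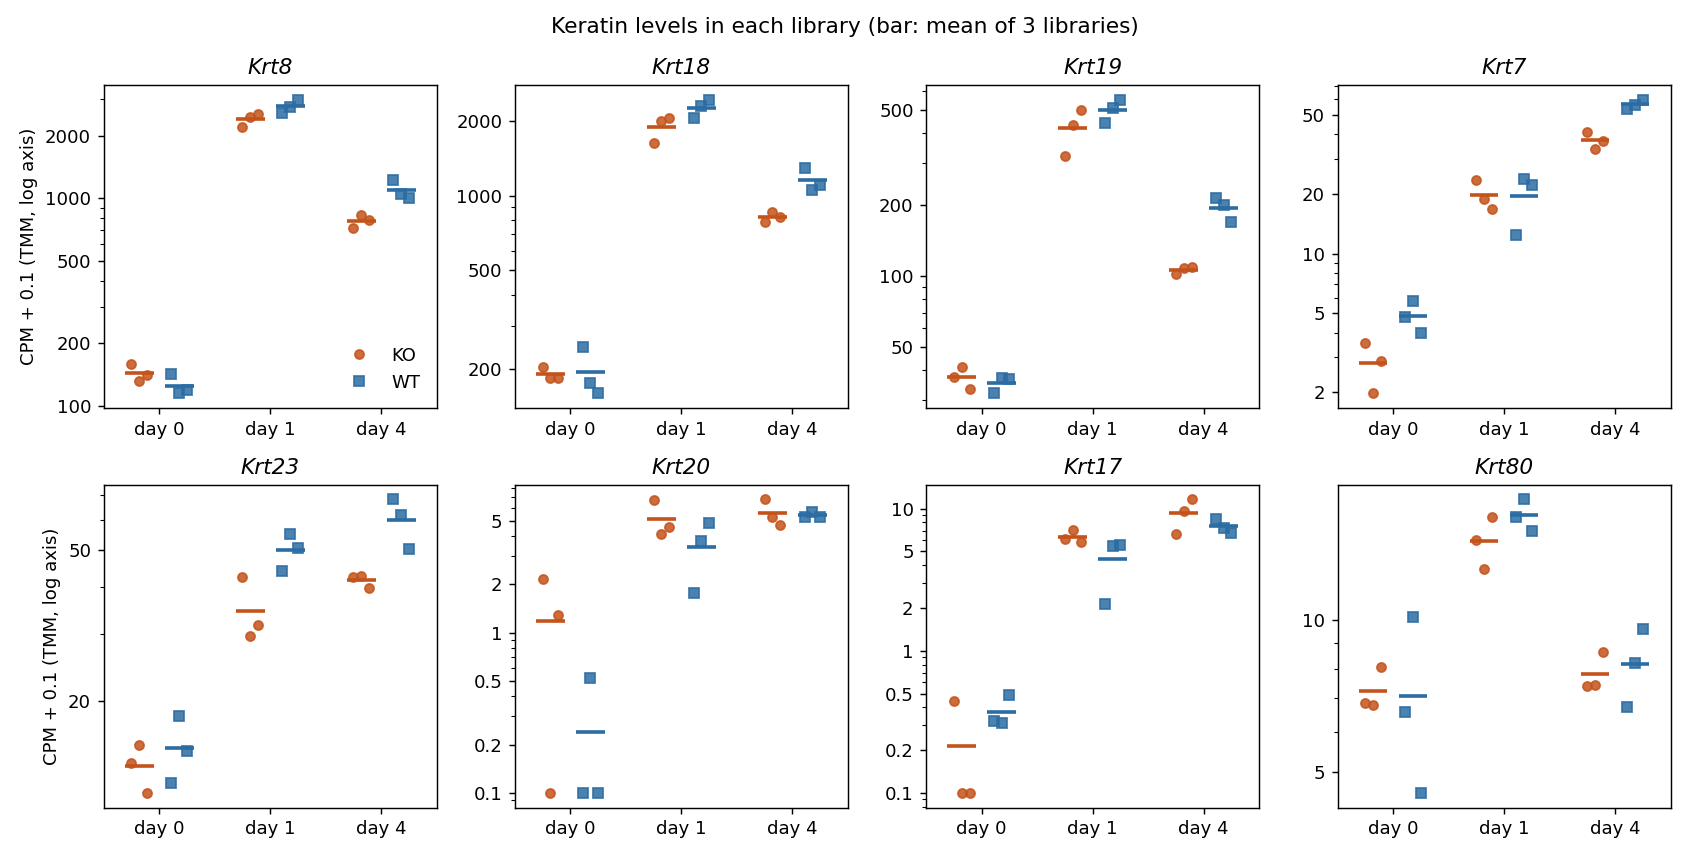
Level of each keratin in each of the 18 libraries, in CPM after TMM scaling with 0.1 added, on a log axis, by day of culture. Circles are KO libraries, squares WT libraries and bars the mean of 3 libraries. In both genotypes the day 1 points lie above the day 0 points for all 8 genes. Of these, Krt17 and Krt20 passed the filter on low counts only through their later counts. At day 4 the 3 KO libraries lay below the 3 WT libraries for Krt8, Krt18, Krt19, Krt7 and Krt23. The share of all tested genes that separate in this way is not given here. The fall of Krt8, Krt18, Krt19 and Krt80 between day 1 and day 4 seen on this scale was not seen with library totals, where Krt19 in KO alone stayed below 0 (log2 fold change -0.14, not called).

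The pair of Krt8 and Krt18 made the largest step in absolute level. Krt8 had 2209, 2462 and 2552 CPM in the KO libraries of day 1, against 159, 131 and 141 CPM in those of day 0. In WT it had 2581, 2756 and 2981 CPM at day 1, against 142, 115 and 118.5 CPM at day 0. The 3 libraries of a group thus lay close together, and the rise was 16.7-fold in KO (log2 fold change 4.06, standard error 0.13, adjusted p = 9.37e-21) and 22.2-fold in WT (log2 fold change 4.47, standard error 0.13, adjusted p = 1.19e-21). Krt18 had 1628, 2005 and 2060 CPM at day 1 in KO, against 204, 185 and 185 CPM at day 0. In WT its levels were 2060, 2296 and 2436 CPM at day 1, against 247, 176 and 160.2 CPM at day 0. This partner of Krt8 rose 9.92-fold in KO (log2 fold change 3.31, standard error 0.14, adjusted p = 4.85e-18) and 11.7-fold in WT (log2 fold change 3.54, standard error 0.14, adjusted p = 1.19e-18). Only 3.01% of the tested genes in KO and 1.90% in WT had a higher log2 fold change than Krt8.

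Krt19, the short type I keratin that is used as a marker of pancreatic ducts, rose as well. Its levels were 321, 432 and 503 CPM at day 1 in KO, against 37.5, 41.2 and 33.1 CPM at day 0. In WT they were 443, 509 and 554 CPM at day 1, against 31.9, 36.9 and 36.7 CPM at day 0. The log2 fold change was 3.49 in KO (standard error 0.14, adjusted p = 5.45e-18) and 3.83 in WT (standard error 0.15, adjusted p = 9.92e-19). Krt7, the other duct keratin, started much lower and rose less. It had 23.4, 18.7 and 16.7 CPM at day 1 in KO, against 3.46, 1.88 and 2.79 CPM at day 0. In WT it had 12.3, 23.8 and 22.0 CPM at day 1, against 4.68, 5.65 and 3.87 CPM at day 0. WT replicate 1 of day 1 was thus the lowest library of its group. It was also the lowest for Krt8, Krt18, Krt19, Krt17, Krt20 and Krt23, though not for Krt80, and it is of the replicate with Ddx3y counts. The log2 fold change of Krt7 was 2.83 in KO (standard error 0.28, adjusted p = 1.72e-08) and 2.03 in WT (standard error 0.26, adjusted p = 8.64e-07).

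Krt17 and Krt20 were close to absent in fresh cells. Krt17, a type I keratin that is best known from hair follicles and wounded epidermis, had 90, 103 and 74 counts in the KO libraries of day 1, against 2, 0 and 0 at day 0. In WT it had 22, 52 and 59 counts at day 1, against 1, 1 and 2 at day 0. Scaled for library size, the ratio of day 1 to day 0 was 48.9 in KO (95% exact counting interval 13.4 to 406) and 15.4 in WT (5.86 to 57.2). Krt20, a type I keratin of the intestinal lining, had 99, 59 and 58 counts at day 1 in KO, against 12, 0 and 6 at day 0. In WT it had 18, 35 and 51 counts at day 1, against 0, 2 and 0 at day 0, a ratio of 24.0 (95% exact counting interval 6.49 to 201). These intervals cover counting error only.

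Krt23 and Krt80 changed least. Krt23, a type I keratin whose role is less well known, had 42.2, 29.7 and 31.7 CPM at day 1 in KO, against 13.7, 15.3 and 11.4 CPM at day 0. In WT it had 44.02, 55.02 and 50.5 CPM at day 1, against 12.1, 18.2 and 14.7 CPM at day 0. Its log2 fold change was 1.37 in KO (standard error 0.16, adjusted p = 4.72e-08) and 1.73 in WT (standard error 0.16, adjusted p = 5.56e-10). Krt80, a type II keratin that is likewise little studied, averaged 14.3 ± 1.70 CPM at day 1 and 7.14 ± 0.73 CPM at day 0 in KO (SD, n = 3 each), and 16.1 ± 1.16 CPM at day 1 and 6.99 ± 2.84 CPM at day 0 in WT (SD, n = 3 each). The log2 fold change was 0.9998 in KO (standard error 0.20, adjusted p = 8.44e-05) and 1.21 in WT (standard error 0.21, adjusted p = 1.04e-05).

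After day 1 the keratins parted. Between day 1 and day 4, Krt7 rose further in both genotypes, and Krt17 was called higher in both, though near the threshold. Krt8, Krt18, Krt19 and Krt80 fell relative to the other genes, and Krt20 and Krt23 did not pass the test. Of all tested genes, 26.2% were called higher and 27.1% lower in KO, and 26.3% higher and 26.0% lower in WT, for day 4 against day 1, so the 2 higher and 4 lower of the 8 keratins are not far from the background. The fall depends on the scaling: with library totals the log2 fold changes of Krt8, Krt18 and Krt80 were 0.20, 0.63 and 0.95 in KO, and those of Krt8, Krt18, Krt19 and Krt80 were 0.64, 1.01, 0.61 and 0.99 in WT, while that of Krt19 in KO was -0.14. Krt8 and Krt19 in KO did not pass on that scale (adjusted p = 0.0987 and 0.36), the others were called higher, and all of these values lay under the shift of the median gene.

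Krt7 had 41.1, 33.8 and 37 CPM at day 4 in KO, against the 16.7 to 23.4 CPM of day 1, and 53.6, 56.1 and 59.8 CPM at day 4 in WT, against the 12.3 to 23.8 CPM of day 1. The log2 fold change was 0.93 in KO (standard error 0.16, adjusted p = 3.89e-05) and 1.55 in WT (standard error 0.16, adjusted p = 5.63e-08). It was positive with library totals as well, but that sign says little. On that scale 12031 of the 13203 tested genes were called higher in KO and 12204 in WT. Of 10 duct markers, 5 were higher and 2 lower at day 4 in each genotype. Of 9 fibroblast and stellate markers, 0 were higher and 4 lower in KO, against 8 higher and 0 lower in WT. The part of these cells in the Krt7 values was not tested. Krt17 averaged 9.20 ± 2.53 CPM at day 4 and 6.25 ± 0.68 CPM at day 1 in KO, and 7.44 ± 0.84 CPM at day 4 and 4.30 ± 1.958 CPM at day 1 in WT (SD, n = 3 each). Its log2 fold changes of 0.56 in KO (standard error 0.23, adjusted p = 0.042) and 0.80 in WT (standard error 0.25, adjusted p = 0.0107) were near the threshold. Without WT replicate 1 of day 1 the WT value was 0.46 (adjusted p = 0.104), and without KO replicate 3 of day 4 the KO value was 0.36 (adjusted p = 0.21). With the replicate number as a block the KO value was 0.52 (adjusted p = 0.0546). The KO call was lost, among other cases, without KO replicate 1, 2 or 3 of day 1 (adjusted p = 0.109, 0.0502 and 0.12). It was lost with DESeq2 as well (adjusted p = 0.0676).

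Krt8 fell to 715, 828 and 782 CPM at day 4 in KO and to 1228, 1044 and 1004 CPM in WT. Its log2 fold change for day 4 against day 1 was -1.64 in KO (standard error 0.12, adjusted p = 8.18e-13) and -1.34 in WT (standard error 0.12, adjusted p = 4.95e-11). Krt18 was at 785, 862 and 822 CPM at day 4 in KO and at 1298, 1057 and 1104 CPM in WT, and its log2 fold change was -1.21 in KO (standard error 0.13, adjusted p = 5.86e-09) and -0.97 in WT (standard error 0.13, adjusted p = 2.71e-07). Krt19 had the largest decline of the 8 genes in KO, while in WT its decline and that of Krt8 were level within their standard errors. Krt19 was at 101, 108 and 109 CPM at day 4 in KO and at 213, 198 and 168 CPM in WT, log2 fold changes of -1.98 in KO (standard error 0.13, adjusted p = 1.44e-13) and -1.38 in WT (standard error 0.12, adjusted p = 2.09e-10). Krt80 was back at 7.73 ± 0.72 CPM in KO and 8.09 ± 1.45 CPM in WT at day 4 (SD, n = 3 each). These levels did not pass the test against day 0 (adjusted p = 0.622 in KO and 0.364 in WT). Without WT replicate 2 of day 0, Krt80 was called higher in WT (log2 fold change 0.59, adjusted p = 0.0292). With library totals its log2 fold change was 3.19 in each genotype (adjusted p = 4.57e-15 in KO and 7.37e-15 in WT). The median tested gene moved there by 3.23 in KO and 3.10 in WT.

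**Figure D2:**
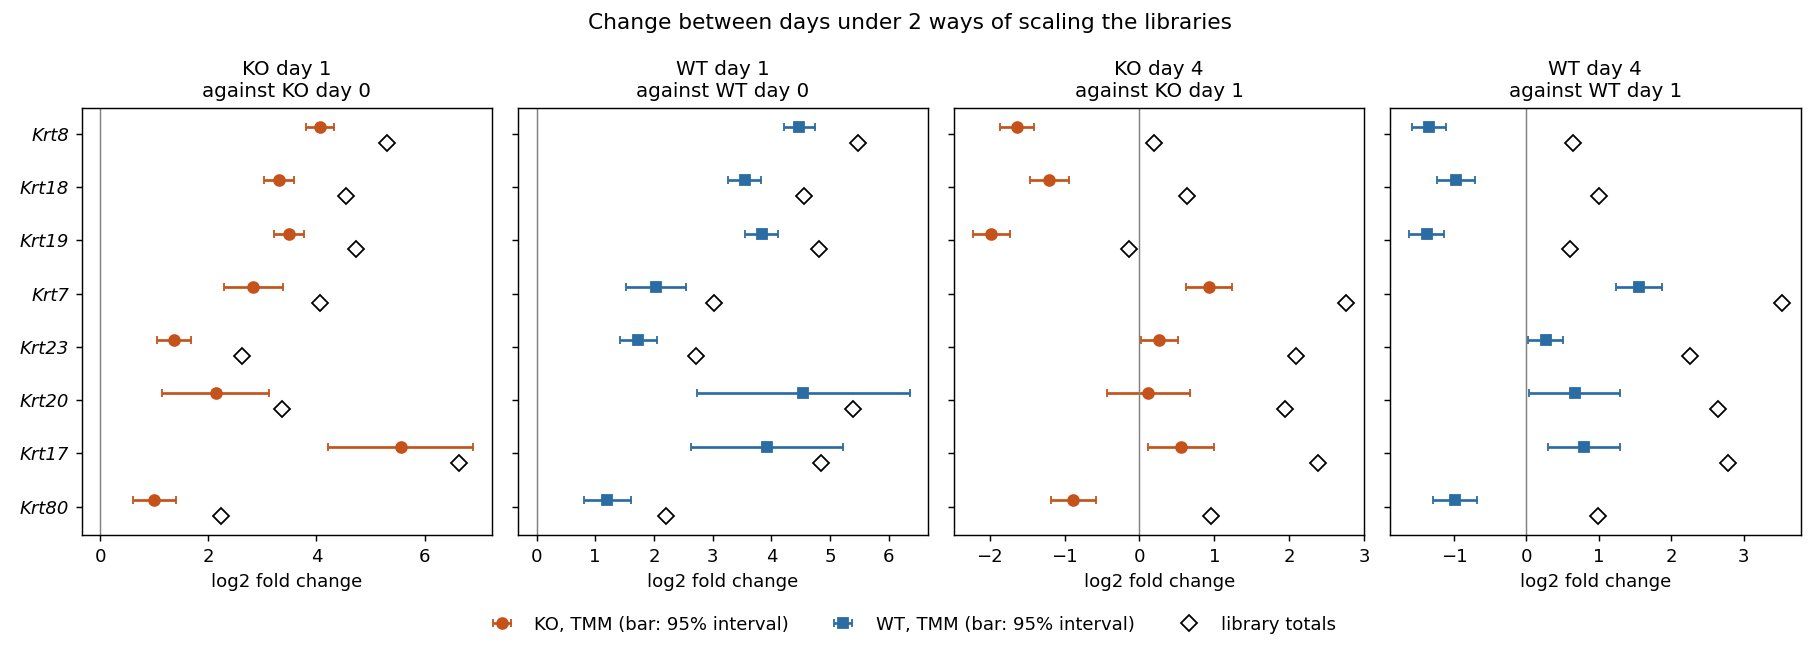
Log2 fold change of each keratin for day 1 against day 0 and for day 4 against day 1, KO left of WT in each pair of panels. Filled symbols are TMM values with their 95% interval, open diamonds the values with libraries scaled by their totals. For day 1 against day 0 the 6 genes with at least 3 counts in every day 0 library lie right of 0 on both scales. So do Krt17 and Krt20, which passed the filter on low counts only through their later counts. With library totals the median tested gene lay right of 0 there as well (log2 fold change 1.29 in KO and 0.998 in WT). For day 4 against day 1, Krt8, Krt18 and Krt80 lie left of 0 with TMM and right of 0 with library totals in both genotypes, as does Krt19 in WT.

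Against the fresh cells, 5 of the 6 keratins with at least 3 counts in every day 0 library were still higher at day 4 in each genotype, where 35.3% of all tested genes were called higher and 29.0% lower in KO, and 33.5% higher and 26.9% lower in WT. The log2 fold change of Krt8 for day 4 against day 0 was 2.43 in KO (standard error 0.12) and 3.13 in WT (standard error 0.13). That of Krt7 was 3.76 in KO (standard error 0.26) and 3.58 in WT (standard error 0.23). The comparisons between days share libraries (day 1 stands in the first and the second, day 4 in the second and the third), so their values are not independent of each other. Counted together, the 8 genes took up 0.0157% ± 0.0027 of the counts of a library at day 0, 0.446% ± 0.0301 at day 1 and 0.598% ± 0.0300 at day 4 in KO, and 0.0142% ± 0.0002 at day 0, 0.421% ± 0.0399 at day 1 and 0.762% ± 0.103 at day 4 in WT (SD, n = 3 each).

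Per kilobase of gene length, Krt18 and Krt8 stood far above the other members in every group. At day 0 in KO, Krt18 averaged 137 ± 7.77 CPM per kilobase, Krt8 79.7 ± 7.92, Krt19 20.1 ± 2.18, Krt23 8.58 ± 1.25, Krt80 4.02 ± 0.41, Krt20 0.566 ± 0.541, Krt7 0.384 ± 0.112 and Krt17 0.0743 ± 0.129 (SD, n = 3 each). Krt20 did not differ from Krt7 or Krt17 beyond its spread. At day 1 in KO, Krt18 (1355 ± 168 CPM per kilobase) and Krt8 (1334 ± 98.5) were level within their spread, as they were in WT (1617 ± 136 and 1536 ± 111). By day 4 the lower end of the order had changed: in KO, Krt17 (5.93 ± 1.63), Krt7 (5.29 ± 0.52) and Krt80 (4.36 ± 0.40) lay above Krt20 (2.85 ± 0.56), with Krt17 within its spread of both Krt7 and Krt80, and in WT Krt7 (8.01 ± 0.43) led Krt17 (4.79 ± 0.54) and Krt80 (4.56 ± 0.82). Together, Krt8 and Krt18 made up 86.5% at day 0, 91.1% at day 1 and 90.9% at day 4 of the summed keratin level per kilobase in KO, and 85.9%, 90.8% and 89.8% at the same days in WT. The length of Krt7 in the table, 7055 bases, is the sum of all its exons, against 4094 bases in its longest coding transcript, so its level per kilobase is on the low side. For Krt80 it is the other way round, with 1774 bases in the table and 3919 in the longest coding transcript, which comes from another annotation release. Its counts belong to the gene as annotated in the count table, so division by the longer transcript can set its level too low. By the length of that transcript the lower end at day 4 in KO was Krt7 (9.11 ± 0.89 CPM per kilobase), Krt17 (5.93 ± 1.63), Krt20 (2.85 ± 0.56) and Krt80 (1.97 ± 0.18), so the place of Krt80 depends on the length used.

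The ratio of 2 keratins within a library does not depend on how libraries are scaled. The count ratio of Krt8 to its partner Krt18 was 1.36, 1.23 and 1.24 at day 1 in KO, against 0.782, 0.708 and 0.765 at day 0, and 1.25, 1.20 and 1.22 at day 1 in WT, against 0.574, 0.652 and 0.739 at day 0. Day 1 and day 0 libraries did not overlap in either genotype, with a 1.70-fold higher ratio in KO and a 1.88-fold higher one in WT (exact permutation test, two-sided, p = 0.1 in each, the smallest p that 3 against 3 libraries can give). At day 4 the ratio was 0.941 ± 0.0264 in KO and 0.948 ± 0.0393 in WT (SD, n = 3 each), below all day 1 libraries and above all day 0 libraries of the same genotype (p = 0.1 for day 4 against day 1 in the same exact test in each genotype). The KO and WT libraries overlapped at each day, and the ratio in KO was 1.15, 1.04 and 0.993 times that in WT at days 0, 1 and 4 (exact p = 0.2, 0.4 and 1, in a test that cannot go below 0.1). The transcripts of the type II partner thus took a larger part of the pair at day 1 than before or after, in both genotypes.

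The ratio of Krt19 to Krt18 was 0.129, 0.125 and 0.133 at day 4 in KO, against 0.164, 0.187 and 0.152 in WT. All 3 KO libraries lay below all 3 WT libraries, and the ratio in KO was 0.772 times that in WT (exact permutation test, two-sided, p = 0.1, the smallest possible). At day 1 and day 0 the same ratio overlapped between KO and WT (exact p = 0.9 at each). The ratio of Krt7 to Krt8 moved the other way from that of Krt8 to Krt18. Krt8 is the denominator of the former and the numerator of the latter, so these moves are not independent. In KO the ratio of Krt7 to Krt8 was 0.00824 ± 0.0021 at day 1, against 0.0186 ± 0.0038 at day 0. In WT it was 0.00693 ± 0.0020 at day 1, against 0.0383 ± 0.0095 at day 0 (SD, n = 3 each). By day 4 it had reached 0.0485 ± 0.0084 in KO and 0.0523 ± 0.0080 in WT, 5.95 times the day 1 ratio in KO and 7.72 times that in WT (exact p = 0.1 in each). At day 0 it was lower in every KO library (0.0217, 0.0144 and 0.0198) than in every WT library (0.0331, 0.0493 and 0.0326), with exact p = 0.1, on 9 to 27 counts of Krt7 per library.

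**Figure D3:**
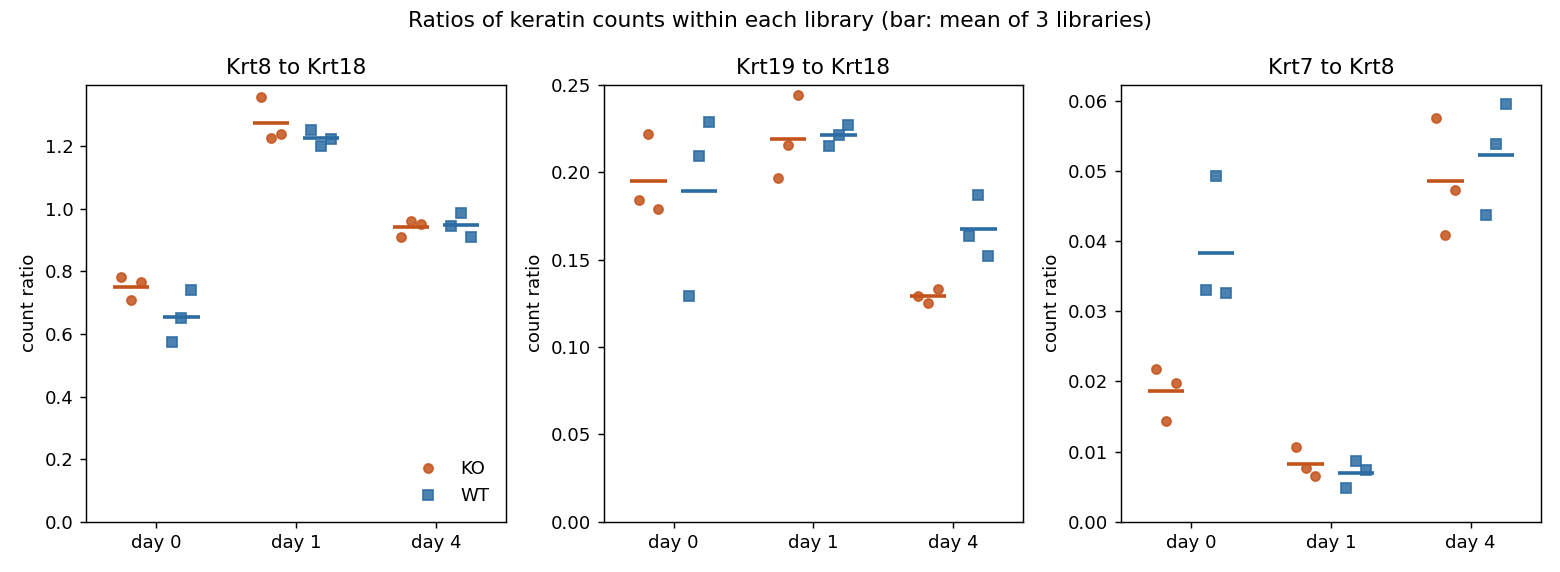
Ratio of the counts of 2 keratins within each library, by day of culture, on axes that start at 0. Circles are KO libraries, squares WT libraries and bars the mean of 3 libraries. Krt8 exceeded Krt18 in counts only at day 1 in both genotypes, Krt19 to Krt18 separated KO from WT at day 4, and Krt7 to Krt8 dipped at day 1.

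In fresh cells the keratins of KO and WT were not told apart. None of the 8 genes was called for KO against WT at day 0, where 0.644% of all tested genes were called higher and 0.53% lower in KO. At an unadjusted p under 0.05 there was 1 gene, Krt20 (12, 0 and 6 counts in KO, against 0, 2 and 0 in WT, adjusted p = 0.309), and DESeq2 called 0. The 95% intervals of the fold were 0.978 to 1.36 for Krt8, 0.821 to 1.18 for Krt18 and 0.866 to 1.29 for Krt19. Krt7 was lower in all 3 KO libraries than in the 3 WT libraries at day 0, but it did not pass (log2 fold change -0.77, standard error 0.40, adjusted p = 0.423).

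At day 1, 1 of the 8 genes was called, with 0.273% of all genes higher and 1.18% lower in KO. Krt23 had 42.2, 29.7 and 31.7 CPM in KO, against 44.02, 55.02 and 50.5 CPM in WT, and the log2 fold change was -0.53 (adjusted p = 0.039, standard error 0.13). The call was lost when any 1 of 7 libraries was left out, with adjusted p up to 0.228 (without KO replicate 2 of day 1), and with library totals the log2 fold change was -0.21 (adjusted p = 0.393). Krt8, Krt18 and Krt19 had log2 fold changes of -0.20, -0.25 and -0.26, none past the threshold (adjusted p = 0.452, 0.386 and 0.346), and with library totals they were 0.11, 0.06 and 0.05. On that scale 1 keratin, Krt17, was called at day 1, and it was higher in KO (log2 fold change 0.86, adjusted p = 0.0349), while of all tested genes 2347 were higher and 51 lower, against 36 higher and 156 lower with TMM.

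By day 4, 5 of the 8 keratins were lower in KO than in WT and none was higher, where 6.39% of all tested genes were called lower and 3.83% higher (844 lower and 506 higher, against 369 lower and 1010 higher with library totals). Krt19 differed most, with 101, 108 and 109 CPM in KO, against 213, 198 and 168 CPM in WT, and the log2 fold change was -0.86 (adjusted p = 2.81e-05, standard error 0.12), a level 0.551 times that in WT. The paper also measured Krt19 by quantitative PCR in mouse exocrine cultures of both genotypes. It reports no difference between KO and WT in its markers of differentiation. These PCR values were not compared with the counts here. Krt7, at 41.1, 33.8 and 37 CPM in KO and 53.6, 56.1 and 59.8 CPM in WT, had a log2 change of -0.60 (adjusted p = 0.00898, standard error 0.14). Krt8 had 715, 828 and 782 CPM in KO, against 1228, 1044 and 1004 CPM in WT, and the log2 fold change was -0.49 (adjusted p = 0.00494, standard error 0.12). Krt18 had 785, 862 and 822 CPM in KO, against 1298, 1057 and 1104 CPM in WT, and the log2 fold change was also -0.49 (adjusted p = 0.014, standard error 0.13). Krt23 had 42.4, 42.6 and 39.6 CPM in KO, against 67.9, 61.7 and 50.2 CPM in WT, and the log2 fold change was -0.53 (adjusted p = 0.00449, standard error 0.12). For these 5 genes the KO libraries did not overlap the WT libraries. The calls rest on the same libraries, so this adds no separate support, and the share of all tested genes without overlap is not given here.

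The other 3 keratins did not pass at day 4. Krt17 averaged 9.20 ± 2.53 CPM in KO and 7.44 ± 0.84 CPM in WT, Krt20 5.48 ± 1.08 CPM in KO and 5.29 ± 0.22 CPM in WT, and Krt80 7.73 ± 0.72 CPM in KO and 8.09 ± 1.45 CPM in WT (SD, n = 3 each). The 95% intervals of their folds were 0.942 to 1.63 for Krt17, 0.737 to 1.46 for Krt20 and 0.785 to 1.16 for Krt80, so a difference of the size seen for Krt19 lies outside these intervals. The calls at day 4 rest in part on the scaling and on single libraries. With library totals 1 gene, Krt19, was called (log2 fold change -0.70, adjusted p = 0.00339), and the log2 fold changes of Krt7, Krt8, Krt18 and Krt23 were -0.43, -0.33, -0.32 and -0.37 (adjusted p = 0.0915, 0.0643, 0.0631 and 0.14). Without WT replicate 1 of day 4, 3 genes were called, since Krt8 (log2 fold change -0.40, adjusted p = 0.0605) and Krt18 (-0.39, adjusted p = 0.115) were lost. Krt18 was also lost without KO replicate 1 of day 4 (adjusted p = 0.0704) or KO replicate 3 (adjusted p = 0.0573), and Krt7 without KO replicate 2 (adjusted p = 0.067). With WT replicate 1 left out at all 3 days, 5 were called, and Krt19 and Krt23 were called without any 1 library.

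**Figure D4:**
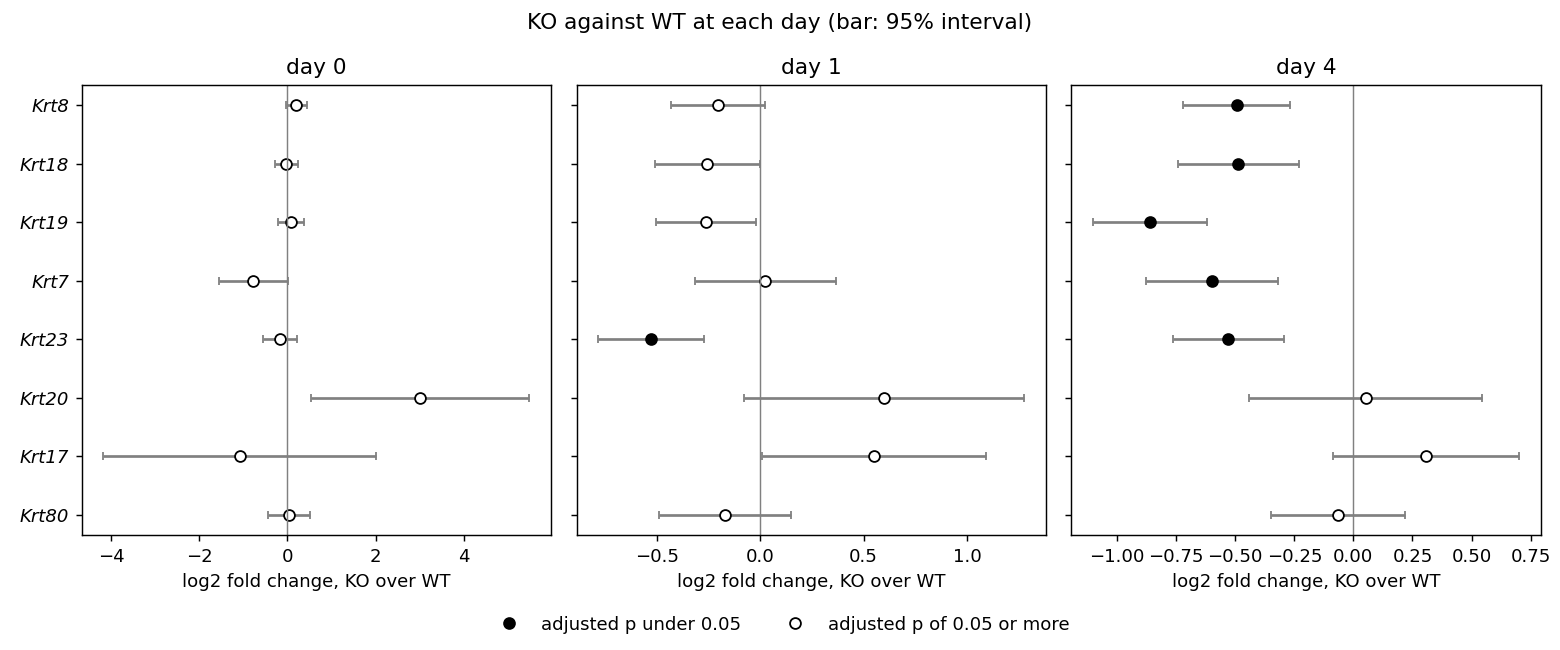
Log2 fold change of KO over WT for each keratin at day 0, day 1 and day 4, each panel with its own horizontal scale. Filled points have an adjusted p under 0.05 (edgeR, TMM), open points do not, and bars are 95% intervals. At day 4 the filled points are Krt8, Krt18, Krt19, Krt7 and Krt23, of which only Krt19 remained called with library totals.

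Some cell type markers, those of acinar cells included, differed between the genotypes at day 4 as well. Of all tested genes 6.39% were called lower and 3.83% higher in KO. Of 9 fibroblast and stellate markers 8 were lower in KO, with a summed level of 26.7 to 61.1 CPM in KO, against 249.1 to 347 CPM in WT. The 6 mesothelium markers summed to 0.774 to 1.09 CPM in KO, against 2.68 to 4.67 CPM in WT. Of 10 acinar markers 4 were lower and 1 higher in KO, and their summed level of 18740 to 22180 CPM in KO lay below the 25040 to 36580 CPM in WT. Of 3 tested intestinal markers 2 were lower and 0 higher in KO, and the list summed to 20.6 to 23.5 CPM in KO, against 30.3 to 34.5 CPM in WT. Of 10 duct markers 2 were lower and 0 higher in KO, and their summed level of 389 to 591 CPM in KO overlapped the 456 to 580.5 CPM in WT. Of 7 endothelium markers 1 was lower and 0 higher. None of 7 islet, 5 tested leukocyte and 1 tested squamous or basal markers was called. The part of these cells in the keratin result was not tested.

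The change over time was compared between the genotypes directly. For day 4 against day 0, Krt19 rose less in KO than in WT by a log2 difference of -0.94 (standard error 0.19, adjusted p = 0.00993) and Krt8 by -0.70 (standard error 0.17, adjusted p = 0.027), where 1.29% of all tested genes were called lower and 0.394% higher. For Krt18 the difference was -0.46 (standard error 0.19, adjusted p = 0.227). For day 1 against day 0 no keratin was called, with 0.0833% of all genes lower and 0.0151% higher. There, 1 keratin, Krt8, had an unadjusted p under 0.05 (log2 difference -0.41, adjusted p = 0.364), and DESeq2 called 0. For day 4 against day 1 no keratin was called either, with 1.67% of all genes lower and 0.924% higher, although Krt19 came close (-0.60, standard error 0.17, adjusted p = 0.0599), 2 keratins had an unadjusted p under 0.05 and DESeq2 called 1. With library totals the day 4 against day 0 differences were -0.83 for Krt19 (adjusted p = 0.0958) and -0.62 for Krt8 (adjusted p = 0.0934), neither of them called. The Krt8 call was also lost when any 1 of 7 libraries was left out (adjusted p up to 0.0892, without WT replicate 1 of day 4), whereas that of Krt19 was not (adjusted p up to 0.0494). The day 0 and day 4 libraries here are those of the comparisons above.

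Genes that work with keratin filaments were described beside the members. Of 12 tested genes for keratin linkers and desmosome proteins, which anchor the filaments at the cell surface, 9 rose and 2 fell by day 1 in KO, and 9 rose and 1 fell in WT. Their median log2 fold change was 1.08 in KO and 0.96 in WT, against 0.05 in KO and 0.01 in WT for all genes, of which 30.5% rose and 27.6% fell in KO and 28.6% rose and 26.9% fell in WT. Itgb4, the integrin subunit that links keratins to the basement membrane in hemidesmosomes, had 307, 403 and 425 CPM at day 1 in KO, against 63.1, 55.6 and 59.4 CPM at day 0, and 401, 344 and 398 CPM at day 1 in WT, against 69.6, 66.8 and 64.7 CPM at day 0. Its log2 fold change was 2.67 in KO and 2.51 in WT (adjusted p = 3.55e-18 and 1.17e-17). The desmosome plaque genes Jup, Pkp2 and Pkp3 had log2 fold changes of 1.06, 1.30 and 1.74 in KO and of 1.33, 1.495 and 1.86 in WT, each past the threshold. At day 4, 1 of the 12 was lower and 0 higher in KO than in WT, beside 6.39% lower and 3.83% higher of all tested genes.

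Of 10 genes for proteins found with keratins in aggregates or bound to keratins, 7 rose and 0 fell by day 1 in KO, and 8 rose and 0 fell in WT, with a median log2 fold change of 2.05 in each. Hspb1, a small heat shock protein that binds filaments, had a log2 fold change of 4.55 in KO and 4.75 in WT (adjusted p = 2.31e-21 and 7.14e-22). Sqstm1, the p62 protein that collects with keratins in inclusion bodies, had log2 fold changes of 2.82 in KO and 2.77 in WT, and Sfn, a 14-3-3 protein that binds keratins, of 3.74 in KO and 4.06 in WT (each past the threshold). None of these 10 genes was called for KO against WT at day 4. Of 8 tested genes of other intermediate filaments, 3 rose and 1 fell by day 1 in KO, and 3 rose and 2 fell in WT, shares near those of all tested genes. Nes, the nestin gene of progenitor cells, had a log2 fold change of 1.49 in KO and 1.72 in WT, whereas Des, the desmin gene of muscle and stellate cells, had 2 to 5 counts per library at day 1, against 9 to 18 at day 0, in KO and 0 to 2 at day 1, against 6 to 30 at day 0, in WT.

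Of 8 tested transcription factors of epithelia, 3 rose and 3 fell by day 1 in KO, and 4 rose and 2 fell in WT, so the list had no common direction. With library totals the WT counts for day 1 against day 0 were 12 higher and 0 lower for the linkers, 10 and 0 for the aggregate partners, 6 and 2 for the other filaments and 6 and 1 for the factors. On that scale 8168 of the 13203 tested genes were called higher and 943 lower, so most genes rose there. Klf4 had a log2 fold change of 1.80 in KO and 2.002 in WT, and Elf3 of 1.36 in KO and 2.12 in WT. Foxa2 fell by 1.36 in KO and by 1.65 in WT on the log2 scale (with library totals, by 0.65 in WT). Elf3 was also lower in KO than in WT at day 1 (log2 fold change -0.79, standard error 0.12, adjusted p = 0.000223) and was the factor of this list that was lower at day 4 (log2 fold change -0.60, standard error 0.11, adjusted p = 0.000414), with 20.8 ± 0.65 CPM in KO and 31.5 ± 2.54 CPM in WT (SD, n = 3 each).

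The remaining keratin genes were nearly silent. Of the 43 other keratins in the table, 21 had no count in any library, and the one with the most, Krt10, had 178 counts over the 18 libraries, against 1159380 for the 8 members. Of keratins that mark squamous or basal epithelium, Krt14 had no count, Krt15 3 counts and Krt5 4 counts over all libraries, and Krt6a had 15 counts in the KO libraries of day 4, against 45 in the WT libraries of day 4, and 0 or 1 in each other group.

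Across the 18 libraries, Krt8 and Krt18 were the most alike of all pairs of members (Pearson r of log2 CPM 0.997), followed by Krt8 and Krt19 (0.984) and Krt18 and Krt19 (0.979). Krt7 went with Krt17 (0.947) and Krt23 (0.928) more than with Krt8 (0.743), and Krt80 with Krt19 (0.812) more than with Krt7 (0.307). These values describe 18 libraries in 6 groups, which share their days, so they mostly hold the course over the days. Among 7780 genes outside the keratins, the nearest to Krt8 was Cdh1, which encodes E-cadherin (r = 0.996), and then St14 (0.996), which encodes the protease matriptase. Cdh1 (0.994) and Rab11fip5 (0.994) were nearest to Krt18, Eno1 (0.990) and Actb (0.989) to Krt19, and Lrfn4 (0.976) and Ran (0.976) to Krt7. Traf4 (0.977) was among the nearest to Krt17. Arpc1b (0.972) and Sec11a (0.968) were nearest to Krt23, Sik2 (0.954) and Lif (0.941) to Krt20, and Vps37b (0.920) and Cnksr1 (0.919) to Krt80. With r over 0.95 there were 257 genes for Krt8 and 0 for Krt80, so a high r is common for the first and sets no gene apart.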

How the data were processed

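RNA was sequenced as single-end reads from TruSeq libraries of 18 samples. Per the paper's methods, the authors trimmed and filtered the reads with FastX and ShortRead, aligned them to GRCm38 and used featureCounts 1.5.3 to count the reads over gene features. Which aligner was run, and whether strand was used, is not given in the sources used here. The deposited raw counts are whole reads per gene, not normalized, for 46603 genes. The deposited FPKM values come from counts that the authors set to a common distribution by full quantile normalization (EDASeq), divided by the library's counts and by gene length. High genes therefore share fixed FPKM values: Krt8 had 2466 FPKM in all 12 libraries of day 1 and day 4. FPKM was used only as an alternative, with log2(FPKM + 1) or log2(FPKM + 0.1).

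Counts were analysed with edgeR 4.0.16 (R 4.3.3): filterByExpr kept 13203 genes, libraries were scaled by TMM (factors 0.316 to 3.38), and a quasi-likelihood model over all 6 groups gave 12 contrasts with Benjamini-Hochberg adjustment over all tested genes and a threshold of 0.05. The code was tested on simulated data. Standard errors are on the log2 scale. Ratios within a library were compared by exact permutation tests. Likeness is Pearson's r of log2 CPM over 18 libraries among genes averaging at least 5 CPM. Of each list, at most the 4 genes with the smallest adjusted p for day 1 against day 0 in WT were named, and other keratins only where called with a mean of at least 1 CPM (none was; Krt10, Krt14, Krt15, Krt5 and Krt6a are named for their counts). Likeness names the 2 genes of highest r for each member. A few results that these rules would name are not reported here. DESeq2 1.42.0 and limma 3.58.1 served as alternatives. The members and lists were chosen with earlier results of these data known. There were 0 columns of other samples.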

Additional observations from a re-analysis of the deposited data

Results flagged for a closer look

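A pair of keratins changed differently over time in the 2 genotypes by a test of the difference itself (edgeR, adjusted p). The change from day 0 to day 4 differed between KO and WT by -0.94 on the log2 scale for Krt19 (standard error 0.19, adjusted p = 0.00993) and by -0.70 for Krt8 (standard error 0.17, adjusted p = 0.027). Within each genotype both genes rose by day 4: Krt19 by 1.51 in KO and 2.46 in WT, and Krt8 by 2.43 in KO and 3.13 in WT on the log2 scale. With library totals the differences were -0.83 for Krt19 (adjusted p = 0.0958) and -0.62 for Krt8 (adjusted p = 0.0934), and neither was called with limma on FPKM. Krt8 was also lost when any 1 of 7 libraries was left out (adjusted p up to 0.0892). Of all tested genes, 1.29% had a lower and 0.394% a higher change in KO.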

How the results depend on the processing

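Of the results that answer a comparison, 466 values under an alternative stayed near the reported one and 56 moved. Counts of called keratins were compared by number alone, so a change of direction at a like number is not among the 56. For day 4 against day 1, library totals gave 8 higher and 0 lower in WT and 6 and 0 in KO. TMM gave 2 higher and 4 lower in each. For KO against WT at day 1, library totals gave 1 higher and 0 lower, against 0 and 1 with TMM. With library totals, the changes for day 4 against day 1 reversed: 0.20 for Krt8, 0.63 for Krt18 and 0.95 for Krt80 in KO, and 0.64 for Krt8, 1.01 for Krt18, 0.61 for Krt19 and 0.99 for Krt80 in WT. With limma on FPKM, Krt18 for day 4 against day 1 was 2.28 in KO and in WT with either pseudocount; FPKM gives Krt18 1303 in all 6 libraries of day 1 and 6312 in all 6 of day 4. FPKM ratios followed the same fixed values. The log2 ratio of Krt8 to Krt18 then differed by 1.70 in KO and 1.71 in WT for day 1 against day 0, by -2.28 in each for day 4 against day 1, and by 0.0088 for KO against WT at day 0. That of Krt19 to Krt18 differed by -0.83 in KO and -0.60 in WT for day 1 against day 0, by -3.35 in KO and -2.93 in WT for day 4 against day 1, and by -0.23 and -0.65 for KO against WT at days 1 and 4. That of Krt7 to Krt8 differed by -2.76 in KO and -3.76 in WT for day 1 against day 0, by 1.26 in KO and 1.80 in WT for day 4 against day 1, and by -0.49 for KO against WT at day 4. The share of Krt8 and Krt18 was 83.7%, 95.8% and 98.8% in KO at days 0, 1 and 4, and 95.2% and 98.4% in WT at days 1 and 4, with FPKM, and 84.4%, 89.7% and 88.5% in KO and 89.5% and 87.2% in WT at those days without length correction.

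The number of keratins called for KO against WT at day 0 was 1 without the filter. At day 1 it was 0 with only the 2 groups compared and with limma on FPKM with either pseudocount, and 0 to 1 with 1 library left out. At day 4 it was 1 with library totals, 1 with limma on FPKM + 1 and 0 on FPKM + 0.1, and 3 to 5 with 1 library left out. For the genotype difference in the day 1 to day 4 change it was 2 without the filter, 1 with DESeq2, 1 with the replicate number as a block and 0 to 1 with 1 library left out. For the day 0 to day 4 change it was 0 with library totals and with limma on FPKM with either pseudocount, and 1 to 3 with 1 library left out. The cause of these moves was not tested.

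Replicate numbers were not taken to pair the samples, since not every correlation was over 0.1: deviations of same-numbered libraries of 1 genotype correlated by -0.112 to 0.317 (median 0.07), those of other-numbered ones by -0.341 to 0.209 (median -0.02). Between day 1 and day 4, same-numbered libraries correlated by 0.143, 0.165 and 0.0114 in WT and by 0.242, 0.147 and 0.317 in KO. Other-numbered ones of 1 genotype ran from -0.341 to 0.0974 between these days. The main test thus leaves out a possible pairing of day 1 with day 4. WT replicate 1 held Ddx3y counts at all 3 days, so its number may follow 1 animal; for the others no source used here says. With the replicate block, Krt7 in the day 1 to day 4 genotype difference (-0.64, adjusted p = 0.045), Krt20 in WT (0.70, adjusted p = 0.0375) and Krt23 in KO (0.28, adjusted p = 0.0494) for day 4 against day 1 passed, and Krt17 in KO did not (0.52, adjusted p = 0.0546). Depth limits Krt17, Krt20 and Krt7 at day 0, which had 0 to 27 counts per library.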
